A study of Mus musculus with 20 samples.

Results

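The baseline transcriptome of untreated mouse gastrocnemius, the large calf muscle, was described from the 5 libraries whose treatment label is Control, out of 20 libraries in the study. The libraries were chosen by that label alone, and no measured value entered the choice. The mice were C57BL/6N males, and their age is not given in the labels used here. The study set such muscle beside muscle of mice given tetrathiomolybdate, a copper chelator, N-acetylcysteine, a thiol antioxidant, or both, and the treated libraries were not analysed here. The labels number the Control libraries 1 to 5 but do not say that each came from a separate animal, so the standard deviations (SD, n = 5) give the spread between libraries, which may be technical.

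Skeletal muscle fibres are giant cells filled with sarcomeres, in which myosin thick filaments pull on actin thin filaments. Calcium released from the sarcoplasmic reticulum starts contraction through troponin and tropomyosin, and calcium pumps end it. Fast glycolytic fibres, which make up most of the mouse gastrocnemius, use the fastest myosin, a large store of glycogen and a creatine phosphate reserve, whereas slow fibres use their own set of contractile isoforms and rely on oxidative phosphorylation.

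Library totals were 57575179, 60735843, 56165109, 60948935 and 62853007 counts, and between 20659 and 21495 of the 31618 gene IDs had at least 1 count. A count of 0 in a library of this depth allowed a level of up to 0.0477 to 0.0534 CPM (counts scaled to the library total), taken as 3 counts of the total, which covers counting error only. Levels are given in FPKM, fragments scaled to transcript length and library total, which can be set beside each other between genes. Shares are shares of summed FPKM unless counts are named. Across genes, the log2 levels of any pair of libraries correlated at 0.975 to 0.989, with genes not being independent replicates. All 5 markers of the skeletal myofibre (Acta1, Tnnt3, Mylpf, Myh4 and Ckm) were at 4556.6 FPKM or more in every library, and together they held 18.9 ± 0.873% of nuclear FPKM. The libraries thus carried the markers of the tissue they are labelled with. Among heart isoforms, Myh6 was at 1.14 ± 0.394 FPKM and Tnni3 at 0.0371 ± 0.0315 FPKM, and Mybpc3 had 0 counts in every library. Not all heart isoforms were low, as Actc1, the cardiac actin, was at 233 ± 74.6 FPKM.

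The mRNA pool was concentrated in few genes. Of 31618 gene IDs, 9511 averaged at least 1 FPKM, 2338 at least 10, 261 at least 100 and 45 at least 1000, of which 23 were nuclear genes. The 10 highest genes of all held 28.3, 30.4, 30.5, 33.0 and 32.1% of summed FPKM in libraries 1 to 5, a mean of 30.9 ± 1.80%. They were not all distinct sequences. Gm10925 and Gm28661 on chromosome 1, with 0 differing bases from mt-Atp6 and mt-Co2, were among the 10 together with those genes. The mitochondrial genome, which encodes 13 subunits of the respiratory chain, held 28.9, 32.4, 33.0, 35.8 and 34.8%, lowest in library 1 and highest in library 4. Its mean share was 33.0 ± 2.64% of FPKM and 15.6 ± 1.55% of counts. Near-identical copies of mitochondrial genes on chromosome 1 took another 13.3 ± 0.927% of FPKM, which left 53.7 ± 3.55% for nuclear genes.

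Within nuclear FPKM, the single highest gene held 5.78 ± 0.373%, the 10 highest held 32.9 ± 1.10%, the 100 highest 55.5 ± 1.10% and the 1000 highest 79.1 ± 0.815%. The number of nuclear genes that together held 50% of nuclear FPKM was 46, 58, 60, 46 and 58 in libraries 1 to 5. Libraries 1 and 4 were thus the most concentrated by this count and library 3 the least. Reaching 90% took between 2702 and 3102 genes.

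Several abundant genes have near-identical copies in the genome that were listed with high levels of their own. Of 47 pseudogenes averaging 50 FPKM or more, 46 could be assigned to a parent gene by shared 31-base words, and they fell to 29 parents. For each of 7 mitochondrial genes, a copy on chromosome 1 was listed at a level close to or below that of the gene itself. Gm10925 stood at 12684 ± 2140 FPKM beside mt-Atp6, a subunit of ATP synthase, at 12233 ± 2063 FPKM, and the sequences had 0 differences over 678 bases. Gm29216 stood at 10238 ± 1252 FPKM beside mt-Co1, the catalytic subunit of cytochrome oxidase, at 24734 ± 3553 FPKM, with 1 differing base in 480. Reads of such pairs cannot be told apart except at a differing base, so neither level is certain. The sequences around the differing base are shown because a read can be told apart only where they differ, each 60 bases from the GRCm38 transcripts of GENCODE M21, 5′ to 3′, with the capital at the differing base.
mt-Co1: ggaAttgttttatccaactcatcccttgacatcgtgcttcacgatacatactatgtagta
Gm29216: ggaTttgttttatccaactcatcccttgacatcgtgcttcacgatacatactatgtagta
Gapdh: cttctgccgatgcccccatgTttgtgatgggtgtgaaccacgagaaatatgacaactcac
Gm5559: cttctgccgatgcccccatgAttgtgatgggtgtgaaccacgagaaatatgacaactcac

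Gapdh, the glycolytic enzyme often used as a reference gene, was the clearest case. Its own ID was listed at 143, 161, 66.4, 116 and 135 FPKM in libraries 1 to 5. The 17 processed pseudogenes of 50 FPKM or more assigned to it together stood at 6477, 6539, 5264, 5939.5 and 5874 FPKM. These copies thus held 98.0% of the joined level. Gm5559, a copy on chromosome 5 with 1 differing base in 999, alone stood at 709 FPKM. Gapdh-ps16, at 85.6 FPKM, was assigned to Gm10358 and is not among the 17. Joined, Gapdh and the 17 copies had 6143 ± 553 FPKM, a level between Atp2a1 and Ckm in the list of the highest nuclear genes. The deposited Gapdh row alone fell far below them. How reads that match several places were counted is not stated, and if such a read was counted more than once the joined level and its rank are too high. Copies also held 83.2% of the joined level of Atp5l, 79.0% of that of Atp5g1, both subunits of ATP synthase, and 75.4% of that of Mpc1, the mitochondrial pyruvate carrier. Myl1, the fast essential light chain of myosin, was little touched, with 7.34% of its joined level in a copy. These parents other than Gapdh and the mitochondrial genes were chosen after their values were seen.

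Contractile proteins came first among nuclear genes. The 16 thin filament genes held 18.7 ± 0.589% of nuclear FPKM and the 14 thick filament genes 8.80 ± 0.414%, while the 22 genes of the Z-disc and titin held 2.94 ± 0.230%. Acta1, the skeletal alpha-actin of the thin filament, was the highest nuclear gene, at 13986, 13448, 11703, 14646 and 13079 FPKM in libraries 1 to 5. It led every other nuclear gene in each of the 5 libraries, most narrowly in library 3. Tnnt3, the fast troponin T that ties troponin to tropomyosin, was at 11340, 11377, 10491, 12333 and 11023 FPKM. Tnnc2, the fast troponin C that binds calcium, was at 9769, 10212, 8421, 8767 and 8848 FPKM, below Tnnt3 in each library. Tnni2, the inhibitory troponin I of fast fibres, stood lower at 4551 ± 269 FPKM, so the 3 troponin subunits, which assemble in equal numbers, were not listed at equal levels.

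Among thick filament genes, Mylpf, the fast regulatory light chain, was at 7635, 7652, 6709.5, 6619 and 6859 FPKM. Myh4, the heavy chain of type IIb fibres, was at 7182, 5874, 6949, 7295 and 6409 FPKM, lowest in library 2. The ranges of Mylpf and Myh4 overlapped, so their order was not resolved beyond the spread between libraries. Myl1 was at 4087 ± 183 FPKM and Mybpc2, the fast myosin-binding protein C, at 1152 ± 111 FPKM. By counts, which grow with transcript length, the order changed: Myh4 took 6.08 ± 0.579% of nuclear counts against 3.07 ± 0.182% for Acta1. Ttn, the giant spring protein of the sarcomere, took 1.36 ± 0.207% of nuclear counts but 0.0337 ± 0.00616% of nuclear FPKM. Ttn was chosen after its values were seen.

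**Figure D1:**
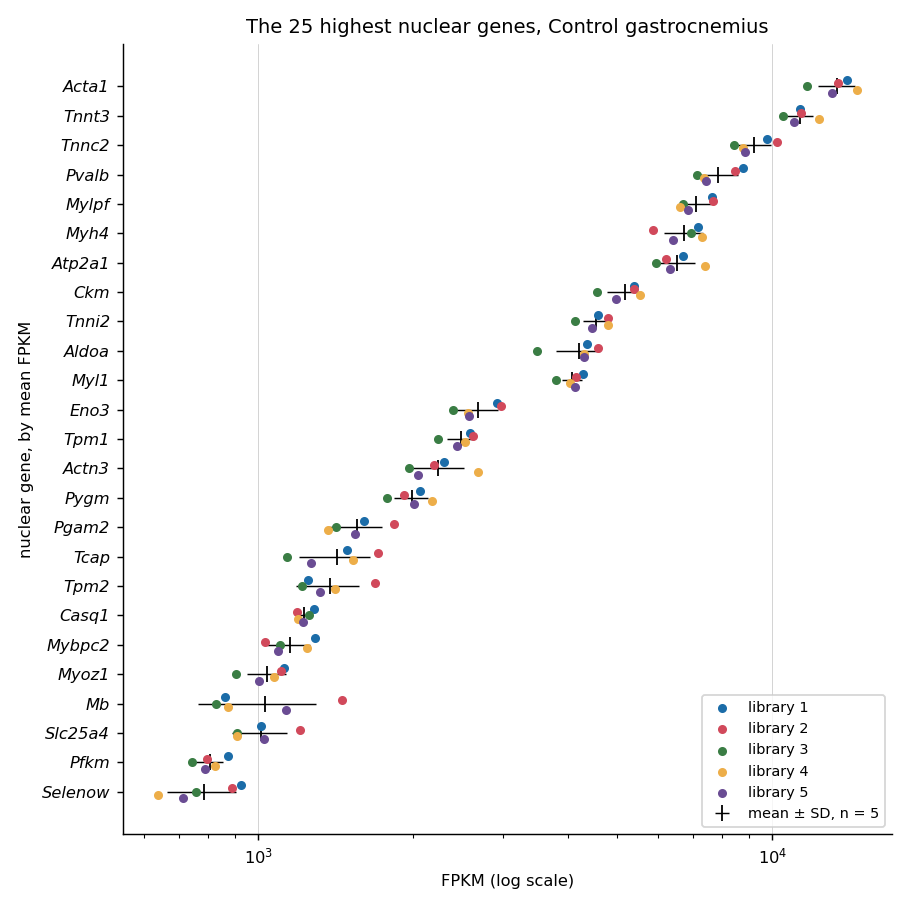
FPKM (log scale) of the 25 highest named nuclear genes in each of the 5 Control libraries, with a black bar at the mean ± SD. Acta1 leads at 13373 FPKM and Selenow, a selenoprotein, is the last at 785 FPKM. Library 3 is the lowest for 19 of the 25 genes, and the share of all genes lowest in library 3 was not counted.

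Calcium handling followed closely, with 25 genes at 7.71 ± 0.300% of nuclear FPKM. Pvalb, the calcium buffer parvalbumin that speeds relaxation of fast fibres, was at 8761, 8479, 7124, 7370.4 and 7447 FPKM, highest in libraries 1 and 2. Atp2a1, the fast calcium pump SERCA1 of the sarcoplasmic reticulum, was at 6718, 6212, 5950.3, 7403 and 6323 FPKM. Casq1, which stores calcium in the reticulum, was at 1282, 1190.5, 1258, 1197 and 1225 FPKM. Its coefficient of variation (CV, the SD divided by the mean) of 0.0618 in CPM scaled for library composition was the lowest of the 25 genes, whose median was 0.0996. The release channel Ryr1 and its voltage sensor Cacna1s were far lower, at 125 ± 13.5 and 93.3 ± 6.37 FPKM. 

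Genes of energy metabolism were also among the highest. Ckm, the muscle creatine kinase that regenerates ATP from creatine phosphate, was at 5381, 5391, 4557, 5526 and 4969 FPKM. The 19 glycolytic genes held 5.30 ± 0.217% of nuclear FPKM with Gapdh counted at its own ID only. Aldoa, the aldolase of glycolysis, was at 4357, 4572, 3492, 4299.7 and 4303 FPKM, with library 3 apart below the others. Eno3, the muscle enolase, stood at 2681 ± 249.06 FPKM and Pgam2, the muscle phosphoglycerate mutase, at 1554 ± 185 FPKM. Pygm, the phosphorylase that breaks down glycogen, was at 1990 ± 149 FPKM, and it alone made up most of the summed 3373 ± 221 FPKM of 19 genes of glycogen metabolism.

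Nuclear genes of mitochondrial respiration were lower per gene. The 37 complex I subunits summed to 3057 ± 507 FPKM, the 13 complex IV subunits to 2520 ± 386 FPKM and the 15 ATP synthase genes to 2320 ± 290 FPKM. The 13 coding genes of the mitochondrial genome summed to 133654 ± 18560 FPKM, of which mt-Co1 was the highest. mt-Co1 was at 20509, 25169, 21806, 28900.3 and 27288 FPKM and mt-Nd1, a complex I subunit, at 13979 ± 1848 FPKM. The lowest of the 13 was mt-Nd3, also of complex I, at 3012, 3748, 3811, 3666 and 3877 FPKM. All but 1 of the 37 complex I genes were highest in library 2 in CPM scaled by edgeR's TMM factors (TMM-scaled CPM), as were 11 of 13 complex IV and 13 of 15 ATP synthase genes. For comparison, 23.9% of all 9511 genes were highest in library 2. In 12 of the 13 mitochondrial coding genes library 4 was the highest, while 29.6% of all 9511 genes were highest there. In 11 of the 13 library 1 was the lowest, and the share of all genes lowest in library 1 was not counted. The nuclear and mitochondrial subunits did not peak in the same library.

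The mRNA of genes of fatty acid uptake and oxidation was lower than that of glycolytic genes, with 22 genes at 0.515 ± 0.0942% of nuclear FPKM. The use of either fuel was not measured. Fabp3, the fatty acid carrier of muscle, was at 212, 464, 245, 258 and 435 FPKM, high in libraries 2 and 5. Mb, the oxygen store myoglobin, was at 864, 1454, 828, 873 and 1133 FPKM, with libraries 2 and 5 again the highest. The 22 genes of the TCA cycle summed to 2140 ± 180 FPKM. Cytosolic ribosomal proteins, 82 genes chosen by symbol, summed to 5909 ± 638 FPKM, less than Acta1 alone in each library. Pseudogene copies were left out of this sum. For the ribosomal genes with an assigned copy of 50 FPKM or more, copies held from 44.9% (Rpl14) to 93.2% (Rpl21) of the joined level. The elongation factors were led by Eef1a2, the form used by adult muscle and neurons, at 486 ± 30.4 FPKM, against 93.5 ± 12.2 FPKM for the ubiquitous Eef1a1.

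The promoter windows of the highest genes were read for the letters of muscle motifs, with sequences from RefSeq on GRCm38.p6. Of the 25 highest named nuclear genes, 20 matched the table. The motifs searched in the 250 bases before the start were TATAAA on the gene's strand, and on both strands the E-box CANNTG bound by MyoD family factors, the MCAT element CATTCC, and the CArG box and the MEF2 site by their consensus. An E-box was in all 20 windows and in 69.3% of 27025 genes. CATTCC was in 7 of 20 (35%) against 14.4% of all genes, the MEF2 consensus in 3 of 20 (15%) against 3.42%, the CArG box in 2 of 20 (10%) against 1.62%, and TATAAA in 2 of 20 (10%) against 8.94%. A match is a run of letters and not a known binding site, and a gene was counted if any of its windows held one. The windows of Acta1 (chr8:123894776-123895025, minus strand) and Mylpf (chr7:127211358-127211607, plus strand) are shown because both genes are among the 5 highest nuclear genes, their windows overlap no annotated exon, and they differ in how many matches they hold, with matches in capitals and no overlap between motifs.
Acta1: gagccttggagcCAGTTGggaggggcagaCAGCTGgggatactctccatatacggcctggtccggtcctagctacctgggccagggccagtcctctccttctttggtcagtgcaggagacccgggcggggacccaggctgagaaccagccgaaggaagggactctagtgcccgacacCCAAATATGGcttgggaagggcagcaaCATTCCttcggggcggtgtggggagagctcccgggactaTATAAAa
Mylpf: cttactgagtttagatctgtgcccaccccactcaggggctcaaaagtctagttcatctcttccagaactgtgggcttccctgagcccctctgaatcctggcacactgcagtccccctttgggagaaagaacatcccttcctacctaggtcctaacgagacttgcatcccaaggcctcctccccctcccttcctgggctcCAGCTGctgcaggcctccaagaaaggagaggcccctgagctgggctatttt

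The Acta1 window held 2 E-boxes, 1 CArG box, 1 MCAT element and 1 TATAAA, and the Mylpf window held 1 E-box, while both genes were at 6619 FPKM or more in every library.

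Fibre type make-up was read from the 4 adult myosin heavy chains, which mark type IIb (Myh4), IIx (Myh1), IIa (Myh2) and I (Myh7) fibres. Myh4 held 94.5, 90.8, 92.996, 91.7 and 92.5% of their summed FPKM, a mean of 92.5 ± 1.39%. This is a share of mRNA in bulk tissue and not of fibres. Myh1 held 4.02 ± 0.851%, Myh2 2.92 ± 0.649% and Myh7 0.547 ± 0.172%. The order IIb, IIx, IIa, I was the same in every library, and the shares of Myh1 and Myh2 overlapped between libraries. By counts the Myh4 share was 91.6 ± 1.56%. The chains are similar in sequence, and 30.4% of the 31-base words of Myh4, 37.8% of those of Myh1 and 38.5% of those of Myh2 also occurred in another chain, so reads there could be counted for either gene. Myh8, the perinatal chain, was at 19.6 ± 3.802 FPKM and Myh3, the embryonic chain, at 0.510 ± 0.237 FPKM.

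Slow isoforms were a small fraction throughout. In 7 pairs of a slow and a fast gene for the same protein, the slow member held between 0.254 and 1.72% of the pair in any library. Myl2, the slow regulatory light chain, held 0.864, 1.72, 0.830, 0.935 and 0.915% of Myl2 plus Mylpf. Tnni1, the slow troponin I, held 0.277, 0.504, 0.254, 0.276 and 0.274% of Tnni1 plus Tnni2. Library 2 was the highest in all 7 pairs. The summed FPKM of 16 slow fibre genes was 666, 1066, 595, 876 and 684 in libraries 1 to 5, so library 4 was also above the remaining 3. Within that list the contractile genes (Myl2, Tnnc1, Tnnt1, Tnni1, Myh7, Myl3) peaked in library 2, while Fhl1, Ankrd2, Csrp3 and Lmod2 peaked in library 4. Csrp3, a stress-responsive Z-disc protein, was at 9.83, 17.7, 11.97, 38.7 and 13.7 FPKM, and Ankrd2, a stretch-responsive ankyrin protein, at 45.0, 82.3, 44.3, 110 and 74.8 FPKM. Csrp3 and Ankrd2 were chosen after their values were seen.

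**Figure D2:**
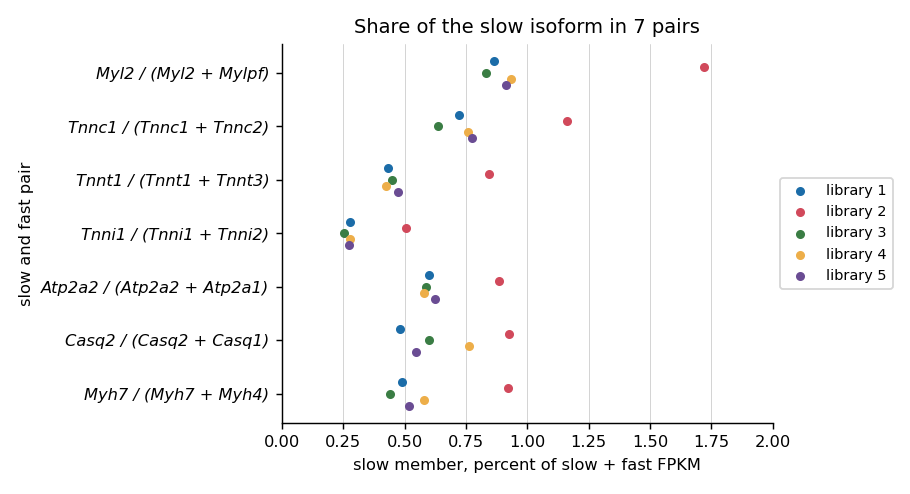
Slow member as percent of slow plus fast FPKM for 7 pairs (linear axis), with each of the 5 Control libraries as a point. All points lie under 2%, and library 2 is the highest in each pair, at 1.72% for Myl2 and 0.504% for Tnni1.

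Paralogue choice was sharp in most families. In 39 of 60 families (65%) the leading member held at least 90% of the family's summed FPKM, and in 22 it held at least 99%. The leader was the same in every library for 56 families, and the same by counts for 57. Sarcomere genes were among the sharpest: Tnni2 held 99.7 ± 0.106% of troponin I, Tnnt3 99.5 ± 0.180% of troponin T, Tnnc2 99.2 ± 0.203% of troponin C and Acta1 98.3 ± 0.582% of striated actin. Glycolytic families ranged more widely. Aldoa, Pfkm, Pgam2 and Eno3 each held over 99% of their families, whereas Hk2, the muscle hexokinase, held 93.5 ± 1.45% and Ldha, the muscle lactate dehydrogenase, 87.7 ± 3.45%, with Ldhb at 12.3%. Pklr, the liver pyruvate kinase, and Fbp1, the liver fructose bisphosphatase, had 0 counts in every library. Ckm held 99.97 ± 0.0079% against Ckb, the brain form, at 1.58 ± 0.378 FPKM. Slc2a4, the insulin-responsive glucose transporter, held 97.7 ± 0.517% at 114 ± 11.03 FPKM, and Slc2a2, the liver form, had 0 counts. For ion channels, Scn4a, the muscle sodium channel, held 99.9 ± 0.0711% and Clcn1, the muscle chloride channel, 92.2 ± 0.955%. Chrne, the adult subunit of the acetylcholine receptor, was at 7.99 ± 1.26 FPKM, while its fetal counterpart Chrng had counts in library 5 only, at 0.0127 FPKM.

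Muscle-specific subunits of cytochrome oxidase were favoured to different degrees. Cox6a2 held 97.5 ± 0.264% over Cox6a1 and Cox8b held 94.6 ± 1.42% over Cox8a, whereas Cox7a1 held 64.8, 61.95, 63.4, 52.7 and 63.8% of the Cox7a genes, lowest in library 4. The Cox7a family was listed with 3 members and the other families with 2, so the shares are not fully alike. By counts Cox7a1 held 42.6%. The calcium pump regulators were led by Mrln, which encodes the micropeptide myoregulin, at 24.5 ± 4.90 FPKM, with Pln and Sln below 1 FPKM on average.

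In 8 families the leader held under 60%. Tropomyosin was split at a higher level, with Tpm1 at 63.8 ± 2.42% and Tpm2 at 35.3%. The calpains were shared by Capn3, the muscle protease, at 47.9 ± 1.9% and the ubiquitous Capn1 at 37.7%. Mef2d and Mef2c, transcription factors of muscle genes, held 47.5 ± 3.57% and 39.4%, and by counts Mef2c led. Sod1 and Sod2, the cytosolic and mitochondrial superoxide dismutases, held 50.2 ± 1.91% and 46.2%, with Sod2 ahead in library 3, and by counts Sod2 led with 68.4%. Lmod2 held 48.7 ± 7.00% and Lmod3 49.6%, both actin nucleators of the thin filament, and Lmod2 led in library 4 only. Pdk4 and Pdk2, kinases that switch off pyruvate dehydrogenase, had close mean levels of 111 ± 63.9 and 106 ± 11.3 FPKM. Pdk4 was at 43.2, 214, 76.6, 109 and 112 FPKM and led in 2 of the 5 libraries, so the choice between them was a matter of the library.

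**Figure D3:**
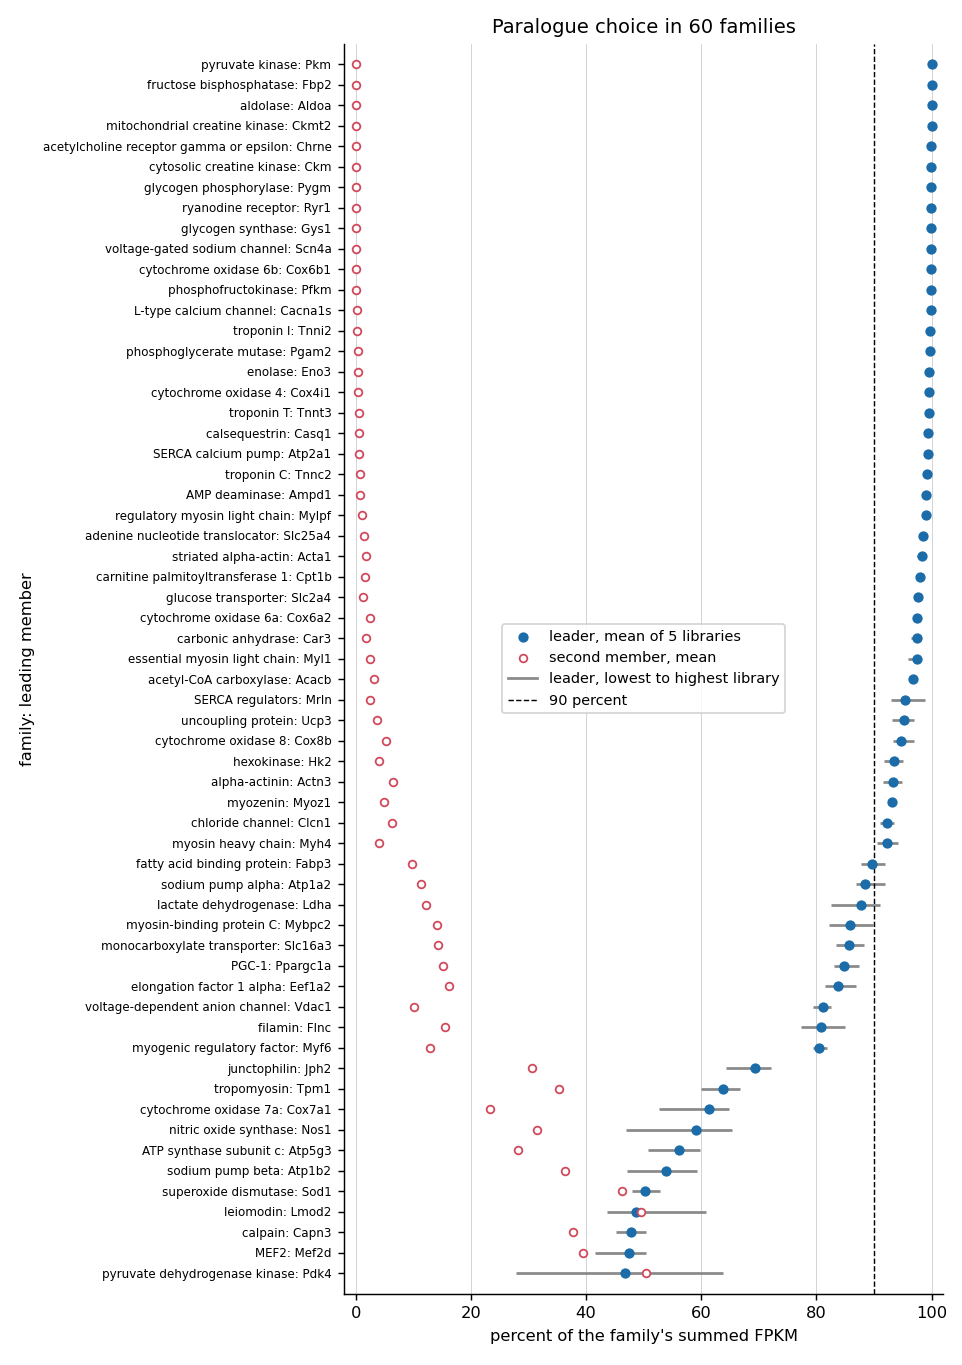
Percent of the summed FPKM of each of 60 families held by the leading member (filled points, mean of 5 libraries, grey line from the lowest to the highest library) and by the second member (open points). A dashed line marks 90%, which 39 families reach, and the widest grey line is that of Pdk4, from 27.9 to 63.8%.

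Among regulators, Myf6, the myogenic factor of mature fibres, was at 49.1 ± 8.29 FPKM and held 80.4 ± 1.03% of its family, ahead of Myod1 at 8.05 ± 2.67, Myog at 3.19 ± 0.950 and Myf5 at 0.753 ± 0.160 FPKM. Tbx15, a factor linked to glycolytic fibres, was at 28.0 ± 6.63 FPKM, and Ppargc1a, a coactivator of mitochondrial genes, at 3.83 ± 0.339 FPKM. The genes of the neuromuscular junction, where the nerve meets the fibre, summed to 65.2 ± 4.33 FPKM over 14 genes. Among genes of development and regeneration, Actc1, the cardiac actin that is also made in immature muscle, was at 151, 339, 226, 179 and 269 FPKM, with library 2 the highest and library 1 the lowest.

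Minor cell types were present at low levels. In bulk tissue, fewer cells of a type and less RNA per cell cannot be told apart. All 14 endothelial markers had a mean FPKM of at least 1, and their sum was 120, 170, 137, 119.6 and 154 FPKM. Cav1, a protein of membrane caveolae, led them at 35.2 FPKM on average, and Cdh5, the endothelial cadherin, was at 13.8 ± 1.86 FPKM. Fabp4, which is also on the adipocyte list, gave 33.6 FPKM of the mean endothelial sum of 140 FPKM, and no sum without it was made. Pericyte and smooth muscle markers summed to 112 ± 9.57 FPKM, led by the pericyte gene Rgs5 at 47.7 ± 4.85 FPKM. Fibroblast and fibro-adipogenic markers summed to 232, 308, 269, 146 and 267 FPKM, lowest in library 4. Of this, 125 ± 31.6 FPKM came from Gsn, an actin-severing protein that other cell types also express, and without it the sum was 119 ± 29.9 FPKM. Dcn, a matrix proteoglycan of fibroblasts, was at 28.4, 37.4, 32.0, 19.9 and 35.5 FPKM. Of the 12 fibroblast markers, 11 were lowest in library 4 on TMM-scaled counts. Among genes with a CV above 0.5, 23.6% were lowest in library 4. The share of all genes lowest there was not counted, so how unusual the fibroblast count is was not tested.

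Tendon markers were also lowest in library 4, although the gap of their sum did not meet the criterion used here for an outlying library. The 10 tendon markers summed to 24.0, 26.6, 28.9, 5.42 and 21.8 FPKM. Fmod, a collagen-binding proteoglycan of tendon, was at 7.56, 11.5, 11.4, 0.780 and 6.38 FPKM, and Thbs4, a tendon matrix protein, at 11.005, 9.72, 9.79, 3.39 and 9.15 FPKM. Tnmd, a membrane protein of tendon cells chosen after its values were seen, was at 1.36, 1.40, 1.27, 0.0994 and 0.857 FPKM. All 4 tendon markers with a mean of at least 1 FPKM were lowest in library 4, again without a share of all genes for comparison.

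Myelin genes set library 3 apart. The 11 Schwann cell markers summed to 21.97, 42.3, 138, 55.3 and 49.8 FPKM. Pmp22, a protein of compact myelin, was at 7.35, 13.5, 35.7, 16.4 and 15.4 FPKM. Mbp, myelin basic protein, and Prx, a scaffold of the Schwann cell, followed the same order at the top, at 8.40 and 4.98 FPKM in library 3 against at most 3.04 and 1.904 FPKM elsewhere. Neuronal markers were led by Camk2a, a calcium-dependent kinase subunit, at 46.0 ± 2.63 FPKM, and the other 11 summed to 1.26 ± 0.278 FPKM.

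Blood and immune markers were uneven. Haemoglobin genes led the erythroid list, with Hbb-bs at 103, 110, 60.4, 68.7 and 112 FPKM, and the near-identical Hba-a1 and Hba-a2 at 54.6 ± 12.2 and 48.8 ± 11.6 FPKM, whose reads cannot be divided with certainty. Macrophage markers summed to 35.4 ± 9.56 FPKM, led by the lysozyme Lyz2 at 16.8, 24.0, 16.3, 11.8 and 25.8 FPKM, with the complement genes C1qa, C1qb and C1qc at 2.27 to 4.43 FPKM on average. The neutrophil list summed to 0, 1.93, 0.672, 2.45 and 14.4 FPKM. S100a9, a calcium-binding protein of neutrophils, was at 0, 1.39, 0.574, 1.97 and 7.41 FPKM, and Ly6g, the defining surface marker, had 0 counts in every library. Lymphocyte markers summed to 0.442 ± 0.107 FPKM and mast cell markers to 2.66 ± 1.49 FPKM.

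Satellite cells, the stem cells of muscle, were represented at a low level, with 10 markers at 16.4 ± 2.14 FPKM, of which Sdc4 and Cdh15 gave 7.41 ± 1.74 and 3.82 ± 0.436 FPKM. Pax7, their defining factor, chosen after its values were seen, was at 0.383 FPKM on average, with 805 counts in all 5 libraries together. The adipocyte list summed to 630 ± 134 FPKM, but Car3, a carbonic anhydrase that is also abundant in muscle fibres, gave 541, 464, 533, 676 and 310 FPKM of it. Without Car3 and Fabp4, which capillaries also express, the 10 remaining genes summed to 55.8, 80.01, 106, 112 and 102.3 FPKM. Cfd, the secreted protease adipsin, was at 13.7, 25.6, 42.6, 26.7 and 36.2 FPKM, lowest in library 1. Cartilage markers summed to 1.65 ± 0.329 FPKM, with Snorc at 0 counts throughout, and keratinocyte markers to 0.953 ± 0.405 FPKM. No part of the variation between libraries in any other gene was tested against these cell type sums.

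**Figure D4:**
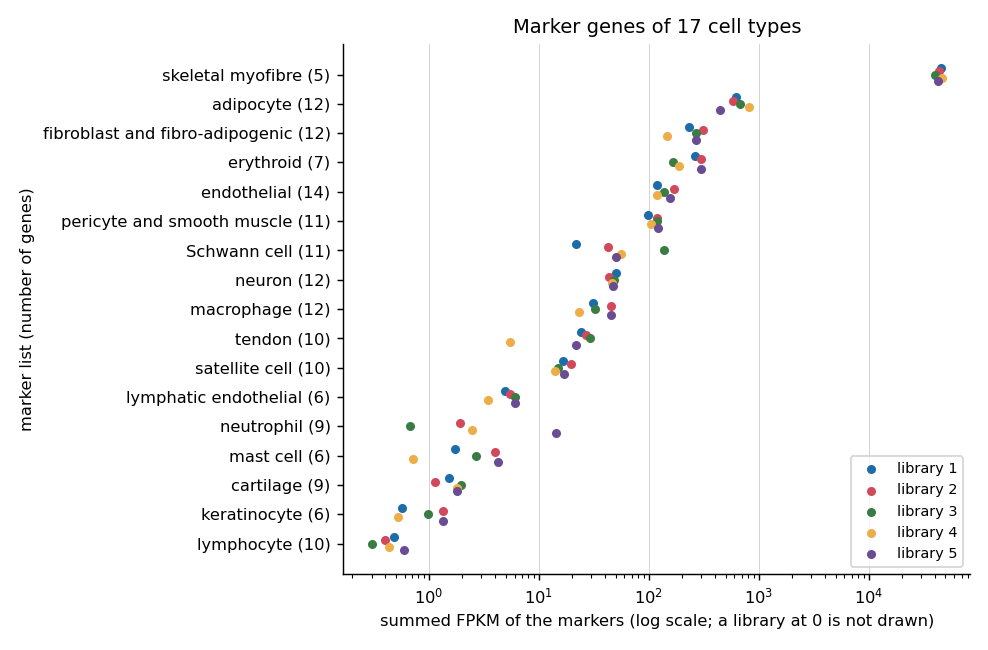
Summed FPKM (log scale) of the markers of 17 cell types in each of the 5 Control libraries, with the number of genes in brackets; library 1 is at 0 for the neutrophil list and is not drawn there. The 5 myofibre markers sum to 43687 FPKM on average, and the neutrophil, Schwann cell, mast cell and tendon lists are spread most widely.

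Most genes varied little between the Control libraries. Over the 9511 genes averaging at least 1 FPKM, the median CV of TMM-scaled CPM was 0.122, and counting alone gave a median CV of 0.0289. A CV above 0.5 was reached by 161 genes (1.69%) and above 1 by 14, while 3379 genes (35.5%) stayed under 0.1. The median CV was 0.153 at 1 to 2 FPKM, 0.106 at 5 to 10 FPKM and 0.113 from 100 FPKM up. The 25 highest named nuclear genes had CVs of 0.0618 to 0.223, the highest being that of Mb. The 13 mitochondrial coding genes had a median CV of 0.138. Protein-coding genes made up 54.7% of the 161 variable genes and 89.1% of all 9511.

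**Figure D5:**
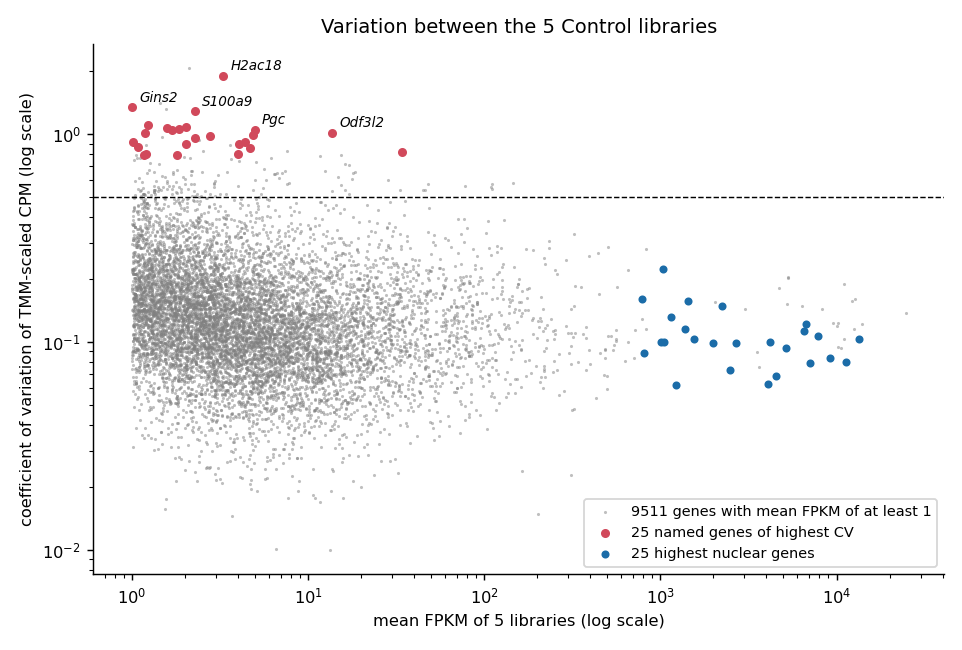
Coefficient of variation of TMM-scaled CPM against mean FPKM (both axes on a log scale) for 9511 genes, with the 25 named genes of highest variation in red and the 25 highest nuclear genes in blue. The dashed line marks a CV of 0.5, which 161 genes exceed and none of the blue points reaches.

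The 25 named genes of highest CV fell into a few kinds. In 10 of them the exons overlap those of another gene, as do those of 32.9% of the 161 variable genes and 36.3% of all 9511, so overlap was not more frequent among the variable genes. H2ac18, a core histone gene, was at 0, 0, 0, 14.3 and 2.12 FPKM with a CV of 1.91, and its counts joined with those of the overlapping Gm20634 had a CV of 0.133. Gins2, a replication factor, was at 2.34, 2.63, 0.0319, 0.0117 and 0 FPKM with a CV of 1.35, and its counts joined with those of Gse1, which overlaps on the opposite strand, had a CV of 0.176. Whether the authors' counting used strand is not given in the sources used here. Adnp, a chromatin regulator, had a CV of 1.06 alone and 0.322 joined with Gm20716. In these 3 pairs the partner held more reads, with mean counts of 984 for Gm20634 against 134 for H2ac18, 1565 for Gse1 against 294 for Gins2 and 2116 for Gm20716 against 714 for Adnp. A joined CV thus follows the partner as well, and how the reads of a pair were assigned was not tested.

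Of 64 symbols with more than 1 gene ID, the 3 among the 25 most variable genes were joined in the same way, with CVs of TMM-scaled CPM. Nnt, the transhydrogenase of the mitochondrial inner membrane, had an ID at 5.21, 11.3, 0, 7.72 and 0 FPKM and another at 4.66, 6.06, 11.7, 6.16 and 13.99 FPKM, and their joined CV was 0.210 against 0.992 for the first. Septin2, a cytoskeletal GTPase, had a CV of 0.896 in its more variable ID and 0.0685 joined, although on the FPKM scale the joined CV was 0.272. Zc3h11a, a zinc finger protein of mRNA export, kept a CV of 0.399 joined. The IDs of each symbol overlap in position, so the level per ID in a single library is not certain.

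Stomach and pancreas genes were another kind. Pgc, the stomach protease precursor pepsinogen C, was at 4.04, 8.21, 0.126, 0.154 and 12.3 FPKM. Gkn2, a secreted protein of gastric mucosa, was at 2.77, 5.12, 0, 0.0502 and 5.88 FPKM. Clps, the pancreatic colipase, was at 1.44, 2.44, 0, 0 and 3.99 FPKM. Of the 25 genes, 6 were typical of stomach or pancreas (Pgc, Gkn1, Gkn2, Tff1, Clps and Pla2g1b), and Tff1 alone of them overlaps an exon of another gene, on the opposite strand. Each was present in libraries 1, 2 and 5 and at or near 0 in libraries 3 and 4. In a list of 11 stomach genes written after these values were seen, the sum was 11.1, 21.4, 0.712, 0.525 and 28.9 FPKM. A list of 9 pancreatic genes written likewise summed to 3.14, 3.85, 0.0227, 0.0720 and 7.46 FPKM, highest in the same 3 libraries. Of its members, Prss2, Cpa1 and Pnliprp1 had 0 counts in every library. The 6 genes above are members of these lists, so the sums largely repeat their values and add little to them. Only 5 of the 11 stomach genes and 2 of the 9 pancreatic genes averaged at least 1 FPKM. Whether this RNA came from the muscle was not tested.

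Mal, a myelin protein of Schwann cells, was in the list through library 3, and S100a9 through library 5. Fkbp5, a chaperone induced by glucocorticoids, was at 2.15, 2.38, 2.40, 11.2 and 3.59 FPKM. Fosb, an immediate early transcription factor, was at 0.322, 3.60, 0.885, 0.903 and 4.44 FPKM. Cytl1, a secreted protein of cartilage, was at 1.42, 0.661, 1.98, 1.12 and 6.22 FPKM. Odf3l2, related to a sperm tail protein, was at 6.41, 4.92, 10.4, 37.7 and 8.78 FPKM. Plac9b was at 4.27, 11.7, 3.79, 0.605 and 3.06 FPKM, and joined with the nearby paralogue Plac9a it had a CV of 0.628 against 0.854 alone. Which library was high thus differed from gene to gene: of the 161 variable genes, 36, 37, 29, 31 and 28 were highest in libraries 1 to 5.

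The 10 steadiest genes averaging at least 5 FPKM had CVs of 0.00998 to 0.0192. Akap1, an anchor of protein kinase A on mitochondria, was at 12.5, 13.8, 13.2, 13.1 and 13.7 FPKM, with the lowest CV of all. Ncstn, a subunit of gamma-secretase, had a CV of 0.0101 and Psap, the precursor of the lysosomal saposins, a CV of 0.0150 at 203 FPKM. Suox, the sulfite oxidase, Pdcl3, Ormdl3, Fkbp9, Dpy30, Rab28 and Cbx1 completed the 10. For 7 of the 10 the CV was at or below that of counting error alone.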

How the data were processed

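Poly(A) RNA was sequenced from gastrocnemius with a strand-marking dUTP kit, per the labels' protocols. The submitters' processing notes name cutadapt 1.9, FastQC, HISAT2 2.2.1, StringTie and the GRCm38 build, with no settings. The authors deposited 1 table of 31618 gene IDs with read counts, not normalized, and FPKM values, which per the file headers are given for each library. The counting method, its use of strand and its annotation version are not stated in any source used here. Of the IDs, 99.731% were in GENCODE M21.

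The 5 Control libraries were taken by their label. Counts were turned into CPM with TMM factors (edgeR 4.0.16 in R 4.3.3), and the coefficient of variation over the 5 libraries was taken for genes averaging at least 1 FPKM. No comparison with treated libraries was made and no p-value was computed. Copies were found by shared words of 31 bases. Summaries used Python 3.11.15 with pandas 2.3.3, numpy 2.4.6 and Biopython 1.88, and figures used matplotlib 3.10.9. Alternatives were counts in place of FPKM, DESeq2 1.42.0 size factors, edgeR's dispersion, other thresholds and pseudocounts, and leaving out each library.

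The genes named were the 25 nuclear genes of highest mean FPKM, the 13 mitochondrial coding genes, members of 60 paralogue families, up to 4 leading members of each gene list and any member with 0 counts throughout, and the 25 genes of highest and 10 of lowest variation, predicted genes and pseudogenes left out. The members and lists were chosen with earlier results of these data known. Of 537 list members, 6 were not matched, and a few genes that the naming rule covers are not reported here. Intervals and floors cover counting error only.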

Additional observations from a re-analysis of the deposited data

Results flagged for a closer look

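Of 176 sets of 5 library values, 26 had a highest or lowest library whose gap to its nearest neighbour was large against the whole range. Chance flags about 1 in 20 such sets, and the most variable genes had been chosen for their variation. By library, 1, 12, 3, 6 and 4 of the 26 fell to libraries 1 to 5.

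Library 2 was apart in its slow isoforms. The slow share of the pair was 1.72% for Myl2, 1.16% for Tnnc1, 0.844% for Tnnt1, 0.504% for Tnni1 and 0.885% for Atp2a2, each above the other 4 libraries. Myh7 held 0.844% of the adult heavy chains there, against 0.411 to 0.535% elsewhere. The fast leaders were lowest in the same library, as much the same measure seen from the other side: Mylpf held 98.3%, Myl1 95.8%, Tnnt3 99.15%, Tnni2 99.49%, Tnnc2 98.8% and Atp2a1 99.1% of its family.

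Library 3 was apart for myelin and for Aldoa. The Schwann cell list summed to 138 FPKM and Mal was at 4.28 FPKM, both above the other libraries. Aldoa, at 3492 FPKM, was below the 4300 to 4572 FPKM of the others.

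In library 4, H2ac18 was at 14.3 FPKM, Odf3l2 at 37.7 FPKM and Fkbp5 at 11.2 FPKM, each the highest. Cox7a1 held 52.7% of its family there, below the other libraries, while Lmod2 at 60.8% and Ckm at 99.98% were above them.

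In library 5, the neutrophil list summed to 14.4 FPKM against at most 2.45 FPKM elsewhere, S100a9 was at 7.41 FPKM and Cytl1 at 6.22 FPKM. Chrne held 99.86% of its family there and all of it in the other libraries. In library 1, mt-Nd3 was at 3012 FPKM, below the 3666 to 3877 FPKM of the others.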

How the results depend on the processing

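No paired analysis was possible because the description uses 1 group of libraries. Of 161 alternative values, 115 left out 1 library each, and all of them stayed within the limits used here. For a mean this was fixed in advance, because leaving out 1 of 5 libraries cannot move it by the SD. Of the other alternatives, 23 stayed within the limits. A further 23 moved by more than the spread between libraries or by more than 1.5 times for a count. The 10 highest genes held 25.3% by counts, 34.3% among nuclear genes and 32.9% among nuclear genes without the chromosome 1 copies. The mitochondrial share was 15.6% by counts and 46.3% with the chromosome 1 copies counted in. Genes past the level threshold numbered 16097 at 0.1 FPKM and 4064 at 5 FPKM. Variable genes numbered 41 from 5 FPKM up, 1863 from 0.1 FPKM up, 471 by the SD of log2(FPKM + 0.1) and 88 among protein-coding genes. Without members that other cells also express, chosen after the data were seen, the fibroblast list summed to 119 FPKM, the neuron list to 1.26 FPKM and the adipocyte list to 91.4 FPKM. As shares of all cell type lists in TMM-scaled CPM in place of FPKM, myofibre markers held 95.2%, satellite cell 0.0512%, endothelial 0.631%, pericyte 0.506%, fibroblast 0.950%, cartilage 0.00958%, neuron 0.328%, adipocyte 1.82% and erythroid 0.172%. The cause was not tested. Leaving out each library in turn gave 30.3 to 31.5% for the 10 highest genes, 32.3 to 34.0% for the mitochondrial genome, 92.0 to 92.9% for Myh4, 39 to 40 families and 154 to 194 variable genes. Without library 5, the neutrophil list averaged 1.26 FPKM against 3.89 FPKM with it. Where a library had 0 counts of a gene, a level under about 0.05 CPM cannot be told from 0 in that library.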

Other observations

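Immediate early genes, which are transcribed within minutes of a stimulus, differed between the Control libraries. A list of 13 such genes, written after their values were seen, summed to 59.4, 108, 65.3, 73.0 and 131 FPKM in libraries 1 to 5. Fos was at 4.45, 19.9, 10.9, 9.85 and 28.6 FPKM, and Egr1 at 2.39, 13.04, 5.16, 5.70 and 12.4 FPKM. Libraries 2 and 5 were the highest for both.

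Another set, also chosen after its values were seen, was low in libraries 1 and 4. Chac1, a glutathione-degrading enzyme, was at 4.11, 31.4, 24.5, 6.40 and 23.4 FPKM. Cish, an inhibitor of cytokine signalling, was at 1.22, 12.7, 8.85, 1.68 and 6.31 FPKM, and Flvcr1, a membrane transporter, at 1.29, 6.44, 5.41, 1.36 and 2.79 FPKM. In each of the 3 genes, libraries 2, 3 and 5 were above libraries 1 and 4.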
